A study of Mus musculus with 4 samples.

Results

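Of the Kruppel-like factors, the 9 genes Klf2, Klf3, Klf4, Klf5, Klf6, Klf9, Klf10, Klf13 and Klf15 were followed through 4 bulk mRNA-seq libraries of mouse liver. They were chosen by gene name, and all 9 are among the 13903 genes of the table. The identifiers in the table are ENSMUSG00000055148 for Klf2, ENSMUSG00000029178 for Klf3, ENSMUSG00000003032 for Klf4, ENSMUSG00000005148 for Klf5, ENSMUSG00000000078 for Klf6, ENSMUSG00000033863 for Klf9, ENSMUSG00000037465 for Klf10, ENSMUSG00000052040 for Klf13 and ENSMUSG00000030087 for Klf15. All mice were OGT-floxed on the C57BL/6J background and ate a diet deficient in choline and supplemented with ethionine (CDE diet), which injures hepatocytes and brings on a ductular and fibrotic response. Mice labelled OGT-KO received AAV8-TBG-CRE, and mice labelled control received AAV8-TBG-eGFP, so the controls carried the floxed allele without Cre. The TBG promoter drives expression in hepatocytes, and the other liver cells keep an intact Ogt. Livers were taken at the end of the diet (No Recovery) or after a 7 day recovery. Each of the 4 conditions was 1 library made from the equally pooled RNA of 3 mice, so no difference has a replicate check and no p-value is given. Age, sex and time of day of collection are not stated in the labels. The libraries held 19972699 to 22866431 reads on the listed genes, and 3 reads, taken as the smallest amount that the depth can show, were 0.131 to 0.150 CPM (the reads of a gene among each 1000000 reads).

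Ogt, the gene floxed in these mice, did not follow the labels at both times. It stood at 64.7 CPM in the control library and 55.3 CPM in the OGT-KO-labelled library without recovery. After 7 days it stood at 55.7 CPM in the control library and 77.7 CPM in the OGT-KO-labelled library, higher in the library in which it should be lower. Reads from Ogt in cells other than hepatocytes are included in these values, and the position of the deleted exons within the reads is not known from the table. The values are on the deposited scale, and Ogt is not given here under another scaling. On the deposited scale both OGT-KO-labelled libraries were above both control libraries for 74.4% of all 13903 genes. The genotype is therefore given below only as the label.

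Kruppel-like factors are zinc finger transcription factors that bind GC-rich and CACCC sequences through a conserved C-terminal DNA-binding domain, and their N-terminal parts recruit activators or repressors. Klf2 and Klf4 are known in endothelium as genes that respond to blood flow, and Klf4 is also one of the factors used to reprogram somatic cells. Klf5 and Klf6 are tied to growth and injury, and Klf6 is an immediate early gene of activated hepatic stellate cells. Klf9 and Klf15 are induced by glucocorticoids, and Klf15 controls amino acid breakdown and gluconeogenesis in hepatocytes. Klf10 is an early target of TGF-beta, Klf3 recruits the corepressor CtBP, and Klf13 represses through Sin3A.

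The 250 bases upstream of the annotated start are shown for Klf6 and Klf4, which differed most upward between the labels together with Klf5, and for Klf9 and Klf15, which differed downward. The sequences are from RefSeq (GRCm38.p6), run 5′ to 3′ in the direction of the gene, and were found for 7 of the 9 members. Capitals mark CACCC boxes (CACCC or its complement GGGTG) and GC boxes (GGGCGG or its complement CCGCCC), the sequences to which this family itself binds.
Klf6, chr13:5861239-5861488, plus strand: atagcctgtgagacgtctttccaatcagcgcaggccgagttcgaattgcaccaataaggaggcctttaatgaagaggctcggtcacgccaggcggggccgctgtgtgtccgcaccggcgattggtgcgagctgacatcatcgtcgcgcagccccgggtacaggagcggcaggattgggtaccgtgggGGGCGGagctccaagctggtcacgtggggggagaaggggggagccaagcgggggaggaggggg
Klf4, chr4:55532476-55532725, minus strand: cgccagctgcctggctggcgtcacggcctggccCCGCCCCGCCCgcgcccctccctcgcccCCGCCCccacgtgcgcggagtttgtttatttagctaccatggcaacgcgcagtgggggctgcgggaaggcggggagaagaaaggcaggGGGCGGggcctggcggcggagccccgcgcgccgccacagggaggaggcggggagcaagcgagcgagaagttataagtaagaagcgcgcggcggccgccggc
Klf9, chr19:23140976-23141225, plus strand: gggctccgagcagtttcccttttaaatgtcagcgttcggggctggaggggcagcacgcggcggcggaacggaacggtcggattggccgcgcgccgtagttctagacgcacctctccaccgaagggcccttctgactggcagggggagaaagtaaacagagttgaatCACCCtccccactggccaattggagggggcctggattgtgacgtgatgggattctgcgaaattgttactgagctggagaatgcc
Klf15, chr6:90462326-90462575, plus strand: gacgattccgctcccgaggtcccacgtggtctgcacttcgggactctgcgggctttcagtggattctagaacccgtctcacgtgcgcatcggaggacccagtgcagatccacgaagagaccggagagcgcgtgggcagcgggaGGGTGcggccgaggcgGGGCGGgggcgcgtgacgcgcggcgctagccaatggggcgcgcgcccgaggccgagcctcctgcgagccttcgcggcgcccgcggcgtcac
The window of Klf4 held 4 GC boxes, some of which share bases, and no CACCC box. The window of Klf6 held 1 GC box and no CACCC box. The window of Klf15 held 1 of each, and that of Klf9 held 1 CACCC box and no GC box. Among the 7 members with a window, 5 held a CACCC box, against 52.0% of 32851 windows of the same length, and 6 held a GC box, against 32.7%. The windows of the members were GC-rich, at 74.0% for Klf4, 72.0% for Klf15, 64.8% for Klf6 and 59.6% for Klf9, with a median of 52.4% over all windows. The AP-1 sequence TGANTCA, searched in the same way, was found in 1 member, Klf9, where it overlaps the CACCC box, and in 6.75% of all windows. Both strands were searched for the cyclic AMP response element TGACGTCA, which was in no member and in 1.55% of all windows. Exact matches to a full glucocorticoid response element or to a MEF2 site were in no member either, and in 0.00913% and 0.140% of all windows. A match is a stretch of letters and was not tested as a binding site.

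Klf15 and Klf9 were the most abundant members in control liver, and in the OGT-KO-labelled libraries Klf6 and Klf2 stood beside them. Levels of different genes are compared here per kilobase of exon (CPM per kb). In the control library without recovery, Klf15 stood at 60.0 CPM per kb and Klf9 at 29.4, followed by Klf13 at 6.51, Klf2 at 6.16, Klf3 at 5.38, Klf10 at 3.16, Klf6 at 2.08, Klf4 at 0.725 and Klf5 at 0.0814. In this order the neighbours Klf13 and Klf2, and Klf2 and Klf3, did not differ beyond their 95% counting intervals. In the OGT-KO-labelled library without recovery the order was Klf15 at 24.9 CPM per kb, Klf6 at 22.8, Klf2 at 16.9, Klf9 at 13.5, Klf3 at 9.12, Klf13 at 7.94, Klf4 at 7.30, Klf10 at 4.65 and Klf5 at 1.56. Klf15 and Klf6, and Klf13 and Klf4, did not differ beyond their intervals there. Klf6 thus moved from the seventh place to the second.

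After 7 days the control library again had Klf15 and Klf9 at the top, at 35.1 and 34.4 CPM per kb, which did not differ beyond their intervals. Klf13 followed at 6.13, Klf10 at 4.62, Klf3 at 3.84, Klf2 at 2.22, Klf6 at 1.63, Klf4 at 0.115 and Klf5 at 0.0289 CPM per kb. Klf2 and Klf6, and Klf4 and Klf5, were not separated by their intervals. In the OGT-KO-labelled library the order after 7 days was Klf15 at 18.3 CPM per kb, Klf6 at 14.7, Klf9 at 11.2, Klf2 at 8.52, Klf3 at 7.31, Klf13 at 7.04, Klf4 at 4.27, Klf10 at 4.12 and Klf5 at 1.54. The pairs Klf3 and Klf13, and Klf4 and Klf10, were not separated by their intervals.

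The summed level of the 9 members was 113 CPM per kb in the control library and 109 in the OGT-KO-labelled library without recovery, and 88.1 and 77.02 CPM per kb after 7 days. On the deposited scale the sum differed less between the labels than its make-up did. Another scaling of the libraries would change the sum but not its make-up. Klf9 and Klf15 together made up 78.8% of the sum in the control library without recovery and 78.9% after 7 days, against 35.4% and 38.3% in the OGT-KO-labelled libraries. Klf2, Klf4, Klf5 and Klf6 together made up 7.97% and 4.54% in the control libraries, against 44.7% and 37.7% in the OGT-KO-labelled libraries.

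**Figure D1:**
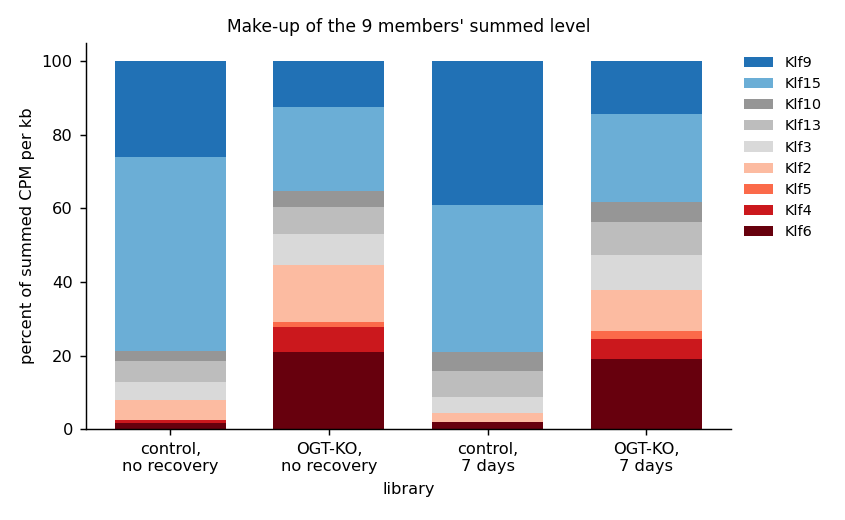
Stacked bars give the percent of the summed CPM per kb of the 9 members (vertical axis) that each gene held in each of the 4 libraries (horizontal axis). Klf9 and Klf15 (blue) held 78.8% and 78.9% in the control libraries and 35.4% and 38.3% in the OGT-KO-labelled libraries, where Klf2, Klf4, Klf5 and Klf6 (red) held 44.7% and 37.7%.

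Klf6, Klf4, Klf5 and Klf2 were higher in the OGT-KO-labelled libraries at both times. Klf6 stood at 9.13 CPM in the control library and 100.02 CPM in the OGT-KO-labelled library without recovery, and at 7.16 and 64.6 CPM after 7 days. Both OGT-KO-labelled libraries lay far above both control libraries. The ratio of CPM was 11.0 (95% counting interval 9.46 to 12.8) without recovery and 9.02 (7.59 to 10.8) after 7 days, and on the scale of log2(CPM + 1), which understates the change of low genes, the difference was 3.32 and 3.01. In bulk liver a change in the number of cells that express a gene and a change in its RNA per cell cannot be told apart.

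Klf4 stood at 2.21 CPM in the control library and 22.3 CPM in the OGT-KO-labelled library without recovery, and at 0.350 and 13.0 CPM after 7 days. The groups did not overlap, and the 7 day control value rests on 7 reads, against 294 reads in the OGT-KO-labelled library. The ratio was 10.1 (7.46 to 13.9) without recovery and 37.2 (17.8 to 93.3) after 7 days, with a log2(CPM + 1) difference of 2.86 and 3.38. Klf5 was near the limit of depth in the control libraries, at 0.423 CPM (9 reads) without recovery and 0.150 CPM (3 reads) after 7 days. In the OGT-KO-labelled libraries it stood at 8.13 CPM (186 reads) and 8.02 CPM (181 reads), without overlap. The ratio was 19.2 (9.90 to 42.7) without recovery and 53.4 (18.0 to 261) after 7 days, an interval that spans more than a 10-fold range, and the log2(CPM + 1) difference was 2.68 and 2.97.

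Klf2 was measured in every library at 82 reads or more, at 11.4 CPM in the control library and 31.1 CPM in the OGT-KO-labelled library without recovery, and at 4.11 and 15.7 CPM after 7 days. The ratio was 2.74 (2.36 to 3.18) without recovery and 3.83 (3.01 to 4.93) after 7 days, and the log2(CPM + 1) difference was 1.38 and 1.71. The groups did not overlap: the lower OGT-KO-labelled value, after 7 days, was above the higher control value, without recovery.

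Klf9 and Klf15 were lower in the OGT-KO-labelled libraries at both times. Klf9 stood at 142 CPM in the control library and 65.0 CPM in the OGT-KO-labelled library without recovery, and at 166 and 53.8 CPM after 7 days. The control level was 2.18 times (2.05 to 2.32) that of the OGT-KO-labelled library without recovery and 3.08 times (2.89 to 3.29) after 7 days, and the log2(CPM + 1) difference was -1.11 and -1.61. Klf15 stood at 167 CPM in the control library and 69.5 CPM in the OGT-KO-labelled library without recovery, and at 97.9 and 51.2 CPM after 7 days. Its control level was 2.41 times (2.27 to 2.55) and 1.91 times (1.78 to 2.06) that of the OGT-KO-labelled library, with a log2(CPM + 1) difference of -1.25 and -0.92. For both genes each OGT-KO-labelled library lay below each control library.

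Klf3, Klf13 and Klf10 differed by less than 2-fold between the labels. Klf3 stood at 60.5 CPM in the control library and 103 CPM in the OGT-KO-labelled library without recovery, and at 43.2 and 82.2 CPM after 7 days, without overlap, and the ratio was 1.69 (1.58 to 1.82) and 1.90 (1.75 to 2.06). Klf13 stood at 49.1 and 59.8 CPM without recovery and at 46.2 and 53.0 CPM after 7 days, with ratios of 1.22 (1.12 to 1.32) and 1.15 (1.05 to 1.25). The direction of Klf13 depended on the scaling at both times. Its log2(CPM + 1) difference was 0.28 and 0.20 on the deposited scale, but -0.43 and -0.48 after median-ratio scaling and -0.19 and -0.28 after upper-quartile scaling. Klf10 stood at 13.2 CPM in the control library and 19.4 CPM in the OGT-KO-labelled library without recovery, and at 19.3 and 17.2 CPM after 7 days. It was the only member whose groups overlapped, with a ratio of 1.47 (1.26 to 1.71) without recovery and 0.892 (0.773 to 1.03) after 7 days. Its difference without recovery was 0.52 on the deposited scale and -0.16 after median-ratio scaling.

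**Figure D2:**
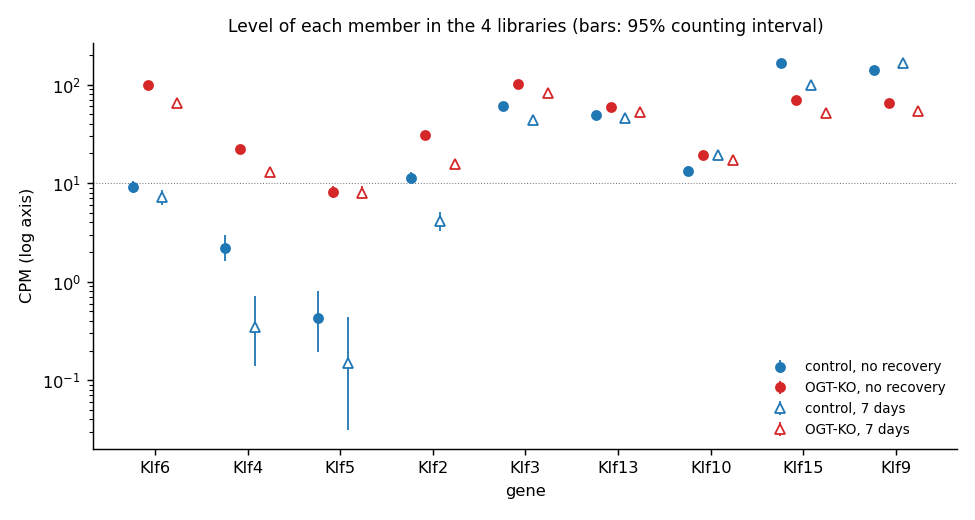
Level of each member (horizontal axis) in CPM on a log axis, with control libraries in blue, OGT-KO-labelled libraries in red, circles for no recovery, open triangles for 7 days and bars for the 95% counting interval. The dotted line marks 10 CPM, and Klf6, Klf4, Klf5 and Klf2 have both red points above both blue points, while Klf15 and Klf9 have both below.

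Counted over the family, both OGT-KO-labelled libraries were above both control libraries for 6 of the 9 members (Klf2, Klf3, Klf4, Klf5, Klf6 and Klf13), but this held for 74.4% of all 13903 genes. Both were below both control libraries for 2 members (Klf9 and Klf15), and for 12.9% of all genes. Upward separation was therefore common in these libraries, and the share of members above was no larger than that of all genes.

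Among the 8963 genes whose mean was 10 CPM or more, which include 7 members, a gene was called at a 2-fold difference. With no recovery 2 members (Klf2 and Klf6) were called higher in the OGT-KO-labelled library, against 24.4% of compared genes, and 2 (Klf9 and Klf15) lower, against 5.69%. After 7 days 2 members (Klf2 and Klf6) were called higher, against 22.9%, and 1 (Klf9) lower, against 4.27%. The call of Klf2 without recovery was lost under upper-quartile and median-ratio scaling, with a difference of 0.92 and 0.69, and Klf15 after 7 days passed 2-fold under them, at -1.40 and -1.60. Klf2 and Klf6 averaged 7.74 and 8.14 CPM over the control libraries, so both passed the filter only through the OGT-KO-labelled libraries in which they were high, as did 1268 of the 8963 compared genes, and their calls are a description. Klf4 and Klf5, with means of 9.46 and 4.18 CPM, lay below the filter. Over all genes without the filter, 4 members (Klf2, Klf4, Klf5 and Klf6) were called higher at each time, against 33.1% of genes without recovery and 32.3% after 7 days, and 2 and 1 members were called lower, against 4.35% and 3.32%.

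The compared genes as a whole lay above 0, with a median log2(CPM + 1) difference of 0.51 without recovery and 0.48 after 7 days, so that a small positive difference is the typical one. The 7 compared members had a median of 0.52 and 0.20, near that of all compared genes without recovery and below it after 7 days. With Klf4 and Klf5, which lay below the filter, the 9 members had a median of 0.75 and 0.91. The 9 ranged from -1.25 to 3.32 without recovery and from -1.61 to 3.38 after 7 days. Relative to the median gene, Klf6 differed by 2.81 and 2.53, Klf2 by 0.87 and 1.23, Klf3 by 0.24 and 0.43, Klf13 by -0.23 and -0.28, Klf9 by -1.62 and -2.08, and Klf15 by -1.76 and -1.40. Median-ratio scaling moved the median of all compared genes to -0.19 and -0.18, and under it 40.4% of the genes called without recovery were higher, against 81.1% on the deposited scale, and 49.6% against 84.3% after 7 days. Klf6, Klf4, Klf5, Klf2 and Klf3 stayed positive and Klf9 and Klf15 negative in both label comparisons under each of the 3 other scalings.

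**Figure D3:**
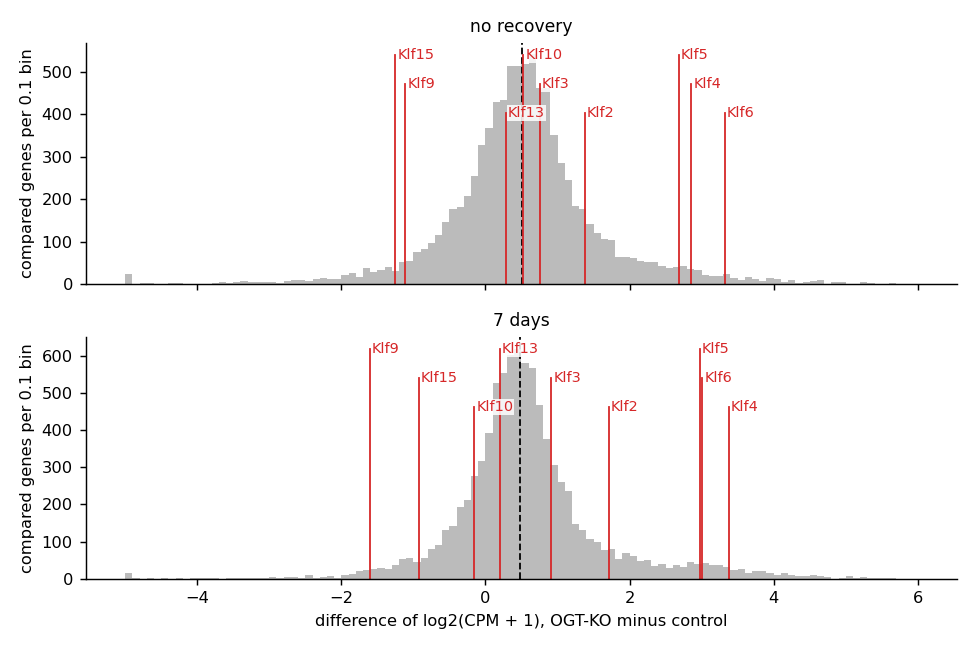
Histograms of the difference in log2(CPM + 1) between the OGT-KO-labelled library and the control library over the 8963 compared genes, without recovery (top) and after 7 days (bottom); values beyond the axis limits are gathered in the end bins. The dashed line is the median of the compared genes, at 0.51 and 0.48, and red lines mark the 9 members, of which Klf6, Klf4 and Klf5 lie in the right tail and Klf9 and Klf15 in the left. Klf4 and Klf5 lay below the filter and are not among the genes of the histograms.

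**Figure D4:**
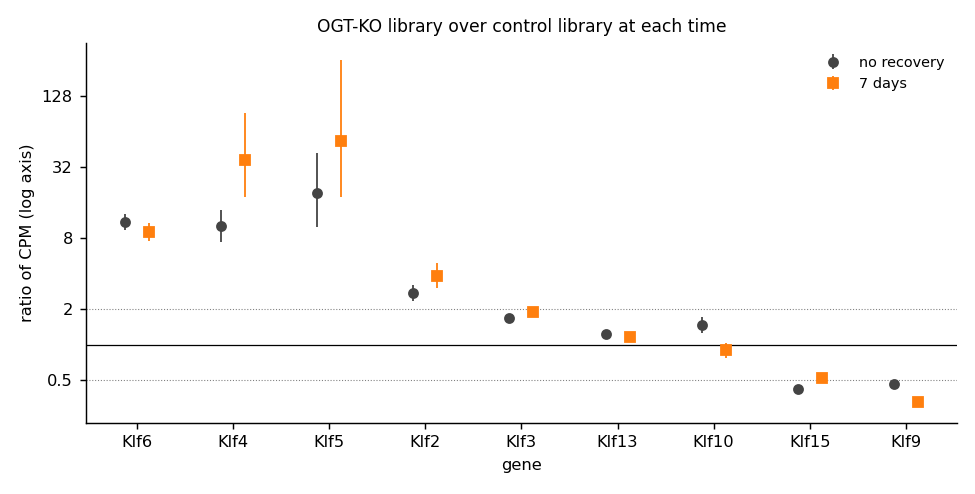
Ratio of CPM in the OGT-KO-labelled library to the control library (log axis) for each member without recovery (circles) and after 7 days (squares), with bars for the 95% counting interval. The solid line is 1 and the dotted lines are 2-fold; Klf6 stood at 11.0 and 9.02, Klf9 at 0.459 and 0.324, and Klf10 on both sides of 1.

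Marker genes of the liver's cell types moved with the labels as well. The summed level of 11 hepatocyte markers was 87404 and 95844 CPM in the control libraries and 56982 and 69485 CPM in the OGT-KO-labelled libraries, and none of them was at 0 reads in any library. With no recovery 6 of the 11 were at least 2-fold lower in the OGT-KO-labelled library, and after 7 days 5. The shares over all compared genes were 5.69% and 4.27%. Under upper-quartile scaling 8 and 6 of the 11 were called lower, and under median-ratio scaling 9 and 7. On the deposited scale 1 of the 11 was higher after 7 days. The lower sum of these markers stands beside the lower Klf9 and Klf15, and its part in them was not tested. The summed level of 12 endothelial markers was 248 to 353 CPM in the control libraries and 537 to 663 CPM in the OGT-KO-labelled libraries, with 5 of 11 compared genes at least 2-fold higher at each time, against 24.4% and 22.9% of all compared genes. These counts were 1 and 2 under upper-quartile scaling and 1 and 1 under median-ratio scaling, which brought the median of the list from 0.96 and 0.99 to 0.27 and 0.38. For 12 macrophage markers the sums were 146 to 393 and 1247 to 1675 CPM, and 10 of 10 compared genes were at least 2-fold higher at each time. The sums of both cell types were higher in each OGT-KO-labelled library than in either control library. For 12 stellate and fibroblast markers the sums were 188 to 261 and 3672 to 4479 CPM, with 12 of 12 at least 2-fold higher at each time. For 10 bile duct markers they were 79.6 to 100.2 and 1313 to 1684 CPM, with 7 of 8 compared genes at least 2-fold higher at each time. These lists moved in the same direction as Klf2, Klf4, Klf5 and Klf6, and their part in those differences was not tested. Lymphocyte markers stayed low, with a sum of 4.16 to 11.3 CPM over 7 genes, none of which passed the filter, and Cd8a was at 0 reads in the control library after 7 days. Erythroid markers were mixed on the deposited scale. Alas2, the first enzyme of heme synthesis in red cells, stood at 213 CPM in the control library and 10.1 CPM in the OGT-KO-labelled library without recovery, and at 171 and 24.0 CPM after 7 days. The globin genes, near-identical copies between which reads may be split, were lower in the OGT-KO-labelled library without recovery and higher after 7 days, such as Hbb-bs at 79.3 and 55.1 CPM and at 61.0 and 80.03 CPM, and the median over the 4 compared erythroid genes was -0.52 and 0.42. After 7 days that median was -0.05 under upper-quartile and -0.25 under median-ratio scaling, where 1 and 0 of the 4 were higher. Its direction after 7 days thus depended on the scaling. The sum over 10 proliferation genes was 35.3 to 38.3 CPM in the control libraries and 232 to 461 CPM in the OGT-KO-labelled libraries. Many of the compared markers passed the filter only through the OGT-KO-labelled libraries, with a control mean under 10 CPM: 7 of 8 proliferation genes, 6 of 12 stellate, 5 of 8 bile duct, 3 of 10 macrophage and 2 of 11 endothelial markers. Passing already required those genes to be higher there, so their counts are a description beside the sums.

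Over the 7 days of recovery, 7 of the 9 members were lower in both labels, against 33.0% of all genes. The exceptions were Klf9 and Klf10. These comparisons use the same 4 libraries as those above, so they are not independent of them. Klf2 changed most among the compared members: its no-recovery level was 2.77 times (2.15 to 3.61) its 7 day level in the control libraries and 1.98 times (1.74 to 2.25) in the OGT-KO-labelled libraries. It was the 1 member called at 2-fold in the control libraries, where 1.2% of compared genes were called. No member was called in the OGT-KO-labelled libraries, where 1.47% of compared genes were called.

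Klf4, below the filter, had a no-recovery level of 6.31 times (2.83 to 16.5) its 7 day level in the control libraries and 1.71 times (1.48 to 1.98) in the OGT-KO-labelled libraries. Klf6 was at 1.27 times (1.02 to 1.59) and 1.55 times (1.45 to 1.65), and Klf3 at 1.40 times (1.28 to 1.53) and 1.25 times (1.17 to 1.33). Klf15 was at 1.71 times (1.62 to 1.81) and 1.36 times (1.26 to 1.47). All of these were lower after 7 days. For Klf5 in the control libraries the interval of the ratio, 0.703 to 16.2, included 1, and in the OGT-KO-labelled libraries the 2 levels were within counting error (ratio 1.01, 0.822 to 1.25). Klf13 was at 1.06 times (0.972 to 1.16) and 1.13 times (1.04 to 1.22).

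Klf9 and Klf10 took opposite directions in the labels. In the control libraries Klf9 after 7 days was 1.17 times (1.11 to 1.23) its level without recovery, and in the OGT-KO-labelled libraries it was 0.827 times (0.766 to 0.892). Klf10 was 1.46 times (1.25 to 1.71) its level without recovery in the control libraries and 0.888 times (0.773 to 1.02) in the OGT-KO-labelled libraries. With Klf2, macrophage markers also changed over time in the control libraries, where 10 of 10 compared genes were at least 2-fold lower after 7 days, against 0 of 10 in the OGT-KO-labelled libraries. The part of these cells in the change of Klf2 was not tested. Endothelial markers had a median log2(CPM + 1) change of -0.54 in the control libraries and -0.44 in the OGT-KO-labelled libraries, and none of the 11 compared reached 2-fold.

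**Figure D5:**
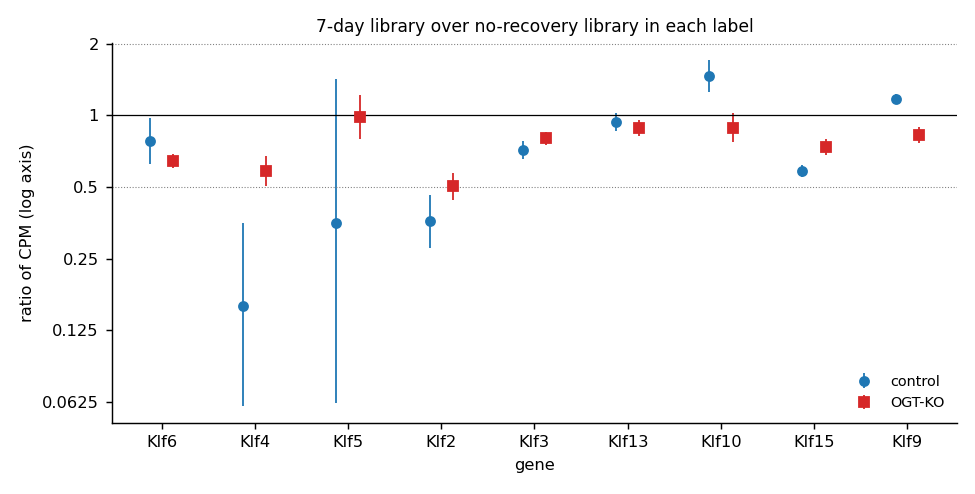
Ratio of CPM after 7 days to CPM without recovery (log axis) for each member in the control libraries (blue circles) and in the OGT-KO-labelled libraries (red squares), with bars for the 95% counting interval. The solid line is 1 and the dotted lines are 2-fold; most points lie below 1, and Klf9 and Klf10 lie above 1 in the control libraries alone.

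The difference between the labels was also compared between the 2 times. No compared member reached a 2-fold change in it, and 2.73% of compared genes did. The largest was that of Klf10, with a change of -0.68 on the log2(CPM + 1) scale, followed among the compared members by Klf9 at -0.49, Klf2 at 0.34, Klf15 at 0.33 and Klf6 at -0.31. Without the pseudocount the log2 ratio of ratios was -0.72 ± 0.15 for Klf10, -0.50 ± 0.07 for Klf9, 0.49 ± 0.21 for Klf2, 0.33 ± 0.07 for Klf15 and -0.28 ± 0.17 for Klf6, where the error is a standard error from counting alone. For Klf4 it was 1.88 ± 0.59 and rests on the 7 reads of the control library after 7 days. The label difference of Klf9 was thus larger after 7 days and that of Klf15 smaller.

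Known partners of the family were taken as lists. Of 8 compared corepressors, none differed by 2-fold at either time, and the median was 0.69 without recovery and 0.61 after 7 days, against 0.51 and 0.48 over all compared genes. Ctbp2 and Sap30, also on this list, lay below the filter and were higher in the OGT-KO-labelled libraries. Ctbp2 stood at 1.27 CPM in the control library and 9.71 CPM in the OGT-KO-labelled library without recovery, and at 1.001 and 11.0 CPM after 7 days. Its log2(CPM + 1) difference was 2.24 and 2.58, and that of Sap30 was 1.17 and 0.998. Hdac1, a histone deacetylase, stood at 21.1 CPM in the control library and 39.4 CPM in the OGT-KO-labelled library without recovery, and at 24.1 and 46.0 CPM after 7 days. Ctbp1, which Klf3 recruits, stood at 52.0 and 90.0 CPM without recovery and at 46.4 and 80.1 CPM after 7 days. The 6 acetyltransferase coactivators and related factors had medians of 0.68 and 0.60, and none reached 2-fold. Among 7 compared ubiquitin ligase genes the medians were 0.46 and 0.37. The 1 called member of that list was Fbxw7, which encodes the substrate receptor that targets Klf5, higher after 7 days with a log2(CPM + 1) difference of 1.42, at 9.01 CPM in the control library and 25.8 CPM in the OGT-KO-labelled library, and no gene of the list was called under upper-quartile or median-ratio scaling. These medians lay near that of all genes, and after median-ratio scaling those of all 3 lists were slightly negative, from -0.29 to -0.02.

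Upstream of Klf2 and Klf4 stands the kinase cascade that ends in Mapk7 (ERK5) and the MEF2 factors, held back in endothelium by the CCM proteins. Of 9 compared genes of this list, 2 were at least 2-fold higher without recovery and 4 after 7 days, against 24.4% and 22.9% of all compared genes, and none was lower, with a median of 0.83 and 0.72. Under median-ratio scaling 1 was called at each time and the medians were 0.16 and 0.06, and after 7 days 1 was called under each of the 3 other scalings. Mapk7 stood at 2.59 CPM in the control library and 19.0 CPM in the OGT-KO-labelled library without recovery, and at 3.25 and 15.5 CPM after 7 days. Its control mean was under 10 CPM, so it passed the filter only through the OGT-KO-labelled libraries. Mef2a stood at 25.4 and 62.5 CPM, and at 26.3 and 60.3 CPM. The other compared genes of the list differed less, and Map2k5 was at 21.5 and 20.9 CPM and at 19.0 and 19.3 CPM. Mef2c, below the filter, stood at 2.07 and 9.66 CPM and at 2.25 and 10.2 CPM. Its log2(CPM + 1) difference was 1.80 and 1.78.

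Of 7 compared endothelial targets of Klf2 and Klf4, 3 were at least 2-fold higher without recovery and 4 after 7 days. Over all compared genes the shares were 24.4% and 22.9%. The medians of the list were 0.96 and 1.04, and 4 of the 7 passed the filter only through the OGT-KO-labelled libraries. Under median-ratio scaling 3 were called at each time, and the medians were 0.27 and 0.39. Thbd, encoding the anticoagulant thrombomodulin, stood at 5.27 CPM in the control library and 46.8 CPM in the OGT-KO-labelled library without recovery, and at 3.60 and 20.8 CPM after 7 days. Vcam1, a leukocyte adhesion molecule that Klf2 is known to repress, stood at 6.82 and 119 CPM, and at 4.51 and 96.1 CPM. A target that Klf2 induces and a target that it represses were therefore both higher. S1pr1, a sphingosine-1-phosphate receptor also induced by Klf2, stood at 59.3 and 50.3 CPM and at 61.4 and 50.03 CPM, lower in both OGT-KO-labelled libraries. Nos3, endothelial nitric oxide synthase, lay below the filter, at 5.46 and 17.3 CPM and at 4.91 and 8.91 CPM.

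Beside Klf9 and Klf15, 9 genes of the glucocorticoid and thyroid hormone response were compared. Of these, 3 were at least 2-fold higher without recovery and 2 after 7 days, against 24.4% and 22.9% of all compared genes. None was at least 2-fold lower. The medians of the list were 0.34 and 0.25, below those of all compared genes, at 0.51 and 0.48. The glucocorticoid receptor gene Nr3c1 stood at 67.9 CPM in the control library and 78.0 CPM in the OGT-KO-labelled library without recovery, and at 72.0 and 70.9 CPM after 7 days. Sgk1, a kinase induced by glucocorticoids and by cell stress, stood at 13.5 and 73.1 CPM, and at 6.96 and 65.2 CPM. Per1, a clock gene with a glucocorticoid response element, stood at 24.3 and 81.4 CPM, and at 10.1 and 22.7 CPM. Sgk1 and Per1 were thus higher in the OGT-KO-labelled library at both times. Over the list, 7 of the 9 genes were higher without recovery and 5 after 7 days. Tsc22d3, the glucocorticoid-induced leucine zipper, differed little between labels, at 75.6 and 71.1 CPM and at 26.3 and 31.9 CPM, but was lower after 7 days in both, as Klf15 was. Thrb, the thyroid hormone receptor of hepatocytes, was lower in both OGT-KO-labelled libraries, at 33.4 and 17.8 CPM and at 27.6 and 19.5 CPM. After median-ratio scaling the medians of this list were -0.36 and -0.42, with 1 gene called higher and 1 lower without recovery and 1 higher and 3 lower after 7 days.

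Of 13 compared genes of amino acid breakdown, the urea cycle and gluconeogenesis, the processes that Klf15 is known to control in liver, 5 were at least 2-fold lower without recovery and 2 after 7 days, against 5.69% and 4.27% of all compared genes, and none was higher. The medians were -0.59 and -0.66. The counts lower were 7 and 9 under upper-quartile scaling and 11 and 9 under median-ratio scaling, with medians of -1.30 and -1.34 under the latter. Prodh, proline dehydrogenase, stood at 171 CPM in the control library and 62.1 CPM in the OGT-KO-labelled library without recovery, and at 188 and 64.7 CPM after 7 days. Otc, a urea cycle enzyme, stood at 405 and 101 CPM, and at 442 and 168 CPM. G6pc, glucose-6-phosphatase, stood at 318 and 60.4 CPM, and at 156 and 82.7 CPM. These were lower in both OGT-KO-labelled libraries, as was the summed level of the hepatocyte markers. Tat, tyrosine aminotransferase, stood at 1455 and 1609 CPM and at 600 and 823 CPM, a difference of 0.14 and 0.46 that was -0.57 and -0.23 after median-ratio scaling, and it was lower after 7 days in both labels.

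Of 11 compared genes of the TGF-beta pathway, upstream of Klf10, 9 were at least 2-fold higher without recovery and 8 after 7 days. With a control mean under 10 CPM, 3 of the 11, Tgfb1 among them, passed the filter only through the OGT-KO-labelled libraries. The shares called higher over all compared genes were 24.4% and 22.9%. None of the 11 was lower, and the medians were 1.64 and 1.51. Under median-ratio scaling 5 were called at each time, with medians of 0.96 and 0.85. Tgfb1, the ligand, stood at 9.78 CPM in the control library and 52.6 CPM in the OGT-KO-labelled library without recovery, and at 6.66 and 44.1 CPM after 7 days. Smad7, an inhibitory target gene of the pathway, stood at 11.3 and 43.1 CPM, and at 15.0 and 40.0 CPM. Klf10, described above, did not take the direction of this list at both times. Of 11 compared genes of growth and injury tied to Klf5 and Klf6, 7 were at least 2-fold higher without recovery and 8 after 7 days. These counts are set against 24.4% and 22.9% of all compared genes. The medians were 2.48 and 1.97, and 5 of the 11 passed the filter only through the OGT-KO-labelled libraries. Cdkn1a, the cyclin-dependent kinase inhibitor p21 and a target of Klf4 and Klf6, stood at 10.9 and 191 CPM, and at 5.86 and 93.1 CPM. Ccnd1, encoding cyclin D1, stood at 42.5 and 251 CPM, and at 47.3 and 437 CPM. Of 8 genes of the pluripotency network in which Klf4 acts, only Myc was in the table, at 11.1 and 69.7 CPM and at 11.5 and 43.5 CPM.

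The genes whose pattern over the 4 libraries was most like that of Klf6 and Klf9 were named by the root mean square difference of the centred log2(CPM + 1) values, over 8949 other compared genes and 4 points. For Klf6 the closest were Capg, which encodes an actin-capping protein, at 0.0582, Tagln, which encodes a smooth muscle actin-binding protein, at 0.0677, and the histone gene Hist1h4h at 0.0808. Tagln stood at 11.0 CPM in the control library and 106 CPM in the OGT-KO-labelled library without recovery, and at 8.66 and 74.0 CPM after 7 days. For Klf9 the closest were Slc37a4, the glucose-6-phosphate transporter of hepatocytes, at 0.0555, Cyp2c37, a liver cytochrome P450, at 0.0650, and the predicted gene Gm7298 at 0.0875. Slc37a4 stood at 104 and 46.7 CPM, and at 118 and 42.1 CPM. With 4 libraries many genes share such a pattern, and the likeness is a description.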

How the data were processed

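Whole-liver mRNA-seq was measured in 4 libraries, each 1 condition and each from the pooled RNA of 3 mice; groups were taken from the submitters' labels. The authors deposited one table of CPM for 13903 genes. It is named for DESeq2 normalization, but each column sums to 1000000 and 100.0% of values are whole multiples of 1 read (tolerance 0.01 reads), so whole reads were recovered. The submitters' processing notes name STAR, DESeq2 and GRCm39; the counter, annotation, strand setting and filter are not given in the sources used here. CPM fixes the total of each library, so a few abundant genes that differ shift all others.

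Differences are of log2(CPM + 1) over genes whose mean was 10 CPM or more, called at 2-fold. Exact 95% intervals (Clopper-Pearson for a level, conditional binomial for a ratio) and the floor of 3 reads cover counting error only. Lengths are unions of GENCODE M21 exons (GRCm38), matched by gene identifier. Promoter sequences are from RefSeq (GRCm38.p6), matched by symbol and used as a window apart from the table, which has no coordinates. The members and the lists were chosen with earlier results of these data known. Named genes were the 9 members, the measured genes of the same KLF and SP family, and up to 4 genes of each list. Those 4 had the largest absolute mean of the 2 label differences among the compared genes of the list. The 3 genes of closest pattern to Klf6 and Klf9 were also named. Map2k5, Mef2c, Ctbp2, Sap30, S1pr1, Nos3, Nr3c1, Tsc22d3, Tat, Smad7, Ccnd1 and Cd8a were named after their values were seen. Alternatives were other pseudocounts, filters, scalings and fold thresholds and an exact binomial test of recovered reads, which compares libraries, not conditions. Scripts used Python 3.11, numpy 2.4.6, pandas 2.3.3 and scipy 1.17.1, and were tested on simulated data.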

Additional observations from a re-analysis of the deposited data

Results flagged for a closer look

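These values are those in which the direction under 1 contrast was opposite in the paired condition; with 1 library per condition none of these differences was tested, and small values of opposite sign are common. All are differences of log2(CPM + 1). Over the 7 days of recovery Klf9 changed by 0.22 in the control libraries and by -0.27 in the OGT-KO-labelled libraries. The label difference of Klf10 was 0.52 without recovery and -0.16 after 7 days, and its change over 7 days was 0.52 in the control libraries and -0.16 in the OGT-KO-labelled libraries; under median-ratio scaling its label difference without recovery was -0.16, the same direction as after 7 days. Klf12 had a label difference of -0.65 without recovery and 0.16 after 7 days, and a change over 7 days of -0.31 in the control libraries and 0.50 in the OGT-KO-labelled libraries. Its label difference after 7 days was -0.29 under upper-quartile scaling, -0.48 under median-ratio scaling and -0.09 when the total left out the 100 most abundant genes, so the opposite directions between the times were seen on the deposited scale and under none of these 3 scalings. Klf11 changed over 7 days by -0.19 in the control libraries and by 0.00035 in the OGT-KO-labelled libraries, and Sp3 by -0.071 and 0.12.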

How the results depend on the processing

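With 1 library per condition no replicate could be left out. No paired analysis was possible because each condition has 1 library and the labels carry no replicate numbers. Of 315 member differences recomputed under the alternatives, 305 kept their sign. The 10 others were Klf13 between the labels without recovery (-0.19 under upper-quartile and -0.43 under median-ratio scaling) and after 7 days (-0.28, -0.48, and -0.07 when the total left out the 100 most abundant genes), Klf10 between the labels without recovery (-0.16 under median-ratio scaling), Klf5 over time in the OGT-KO-labelled libraries (0.02 under upper-quartile and 0.05 under median-ratio scaling), and, with a pseudocount of 10, the change of the label difference of Klf2 (-0.08) and Klf4 (-0.25).

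The counts of members at least 2-fold apart, given above as 2 higher and 2 lower without recovery and 2 higher and 1 lower after 7 days, changed as follows. Members higher without recovery and after 7 days numbered 1 and 1 with a pseudocount of 10, 4 and 4 without the filter, 0 and 0 with a mean of at least 50 CPM, and 1 and 1 at a 4-fold threshold; without recovery 1 was left under upper-quartile and 1 under median-ratio scaling. Members lower after 7 days numbered 2 (Klf9 and Klf15) under upper-quartile scaling, median-ratio scaling, the total without the 100 most abundant genes and a 1.5-fold threshold, and 0 at 4-fold, where 0 were lower without recovery. Over 7 days in the control libraries 0 members changed with a pseudocount of 10, a mean of at least 50 CPM or a 4-fold threshold, and 2 without the filter or at 1.5-fold. At 1.5-fold 2 members changed in the OGT-KO-labelled libraries, and 1 in the label difference. Under upper-quartile scaling 55.2% and 62.1% of all genes called between the labels without recovery and after 7 days were higher, without the 100 most abundant genes 70.7% and 73.4%, and with a mean of at least 50 CPM 59.9% and 64.2%. The test on reads, with Benjamini-Hochberg adjustment, called 8011 and 7899 of 8963 genes between the labels without recovery and after 7 days and 3524 and 5048 over time in the control libraries and those labelled OGT-KO, including 7, 6, 5 and 6 of the 7 compared members, so at this depth counting error does not limit calls of most compared genes. Klf4 and Klf5 in the control libraries, at 3 to 47 reads, are limited by depth.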

Other observations

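Of the other Kruppel-like and SP factors, 12 of 17 were in the table and 6 passed the filter. Their median log2(CPM + 1) difference between the labels was 0.39 without recovery and 0.53 after 7 days, against 0.51 and 0.48 over all compared genes, and -0.31 and -0.12 after median-ratio scaling. Of these 6, Klf7 and Sp2 passed the filter only through the OGT-KO-labelled libraries, with a control mean under 10 CPM. Over all compared genes 24.4% were at least 2-fold higher without recovery and 22.9% after 7 days. Klf7 was the 1 of the 6 that was at least 2-fold higher at both times. It stood at 7.24 CPM in the control library and 19.0 CPM in the OGT-KO-labelled library without recovery, and at 6.16 and 18.7 CPM after 7 days. Its difference of 1.28 and 1.46 was 0.62 and 0.84 under median-ratio scaling and 0.84 and 1.02 under upper-quartile scaling, so it was under 2-fold at both times with the first and without recovery with the second. Sp1, the general activator that binds GC boxes, stood at 31.8 and 42.8 CPM, and at 36.5 and 48.7 CPM, a difference of 0.42 and 0.40 on the deposited scale and of -0.28 and -0.27 after median-ratio scaling. Klf16, below the filter, stood at 5.97 and 12.6 CPM, and at 6.41 and 10.5 CPM.

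Klf1, the factor of red cell development, was below the filter and lower in both OGT-KO-labelled libraries, at 4.09 and 0.831 CPM without recovery and at 3.81 and 1.06 CPM after 7 days. Sp5, a target of Wnt signalling, stood at 2.68 CPM in the control library and 0.262 CPM (6 reads) in the OGT-KO-labelled library without recovery, and at 3.20 and 1.51 CPM after 7 days. Sp6 had 0 reads in the control library without recovery, under the floor of 3 reads, and 24, 4 and 17 reads in the OGT-KO-labelled library without recovery, the control library after 7 days and the OGT-KO-labelled library after 7 days.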
